A study of Mus musculus with 3 samples.

Results

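Of the 32285 genes counted in embryonic mouse kidney, 9 genes of simple and transporting epithelium are described here: the keratins Krt7, Krt8, Krt18, Krt19 and Krt23, the water channels Aqp1, Aqp2 and Aqp3, and Fxyd4. They were chosen by name, with earlier results of these data known, and each symbol matched 1 gene of the count table. Whole kidneys of B6 mice at E15.5, a stage counted in embryonic days, were dissociated for 10x 3′ single-cell RNA-seq, with 1 library for each of 3 groups. All embryos carried the Wt1 GFPCre knock-in allele, which inactivates 1 copy of Wt1 and expresses a GFP-Cre fusion from the Wt1 promoter, so the Enl-WT embryos were heterozygous for Wt1 as well. The Enl-T1 embryos also carried a Cre-dependent knock-in on 1 allele of Enl (gene symbol Mllt1, a chromatin reader), which after recombination encodes the tumor-associated T1 insertion. In the third group, the mothers of Enl-T1 embryos were given TDI-11055, an inhibitor of the ENL reader domain, by mouth at 100 mg/kg daily from E10.5 to E14.5. The study places Wt1-driven Cre in the nephron and stroma lineages and not in the ureteric epithelium, where most of the 9 genes are expressed. The mice of the other groups are titled as not treated.

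Keratins form the intermediate filaments of epithelial cells from pairs of a type II protein (here Krt7 and Krt8) and a type I protein (here Krt18, Krt19 and Krt23), and a cell needs a partner of each type to build a filament. In the kidney, simple-epithelium keratins mark the ureteric bud and what grows from it, the collecting duct and the lining of the ureter and pelvis (urothelium). Aquaporins are membrane water channels. Aqp2 is the vasopressin-regulated channel of the apical membrane of collecting duct principal cells, Aqp3 lies in their basolateral membrane, and Aqp1 is the channel of proximal tubule, thin descending limb and endothelium. Fxyd4 encodes a small membrane protein that regulates the sodium pump in the collecting duct.

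With 1000 to 6000 genes per barcode and at most 10% mitochondrial counts, 5233, 4144 and 2754 cells were kept in Enl-WT, Enl-T1 and treated Enl-T1, which is also the order of every triplet of values given in the text. Depth differed among them, with a median of 5090, 9391 and 16932 unique molecular identifiers (UMIs) per cell. The libraries shared 5, 8 and 7 barcodes pairwise. Cells with Xist and no Y-linked transcript made up 26.5%, 73.3% and 35.1% of kept cells, so sex and group were unbalanced, and each library held embryos of both sexes. The ureteric epithelium comprised 1741, 1172 and 1020 cells in clusters formed without the 9 genes. Its 9 tip markers (Ret, Wnt11 and others) were all detected in tip-like cells, where they summed to 1123, 1079.5 and 1330.2 CPM (UMI counts of a gene scaled to 1000000 UMIs of its cluster and library), against 94.7, 154 and 94.7 in stroma-like cells. The 7 trunk markers summed to 3072, 3246 and 3233 CPM in the trunk-like cluster. The 8 urothelium markers, mainly uroplakins, summed to 921, 1478 and 813 CPM in a Spp1-led and to 1937, 3756 and 785 CPM in a Upk1b-led urothelium-like cluster. The medullary collecting duct-like cluster held all 9 markers of its list (1963, 2172 and 2054 CPM), but Spink8 and Sprr2f led it and none of the 9 was among its leading 10 genes. A Rhcg-led cluster that expressed both trunk and collecting duct genes stayed unnamed, as did smaller clusters led by Lix1 (with tip and trunk genes), Ube2c (dividing cells), Vcan and Cdc20. The last, with hemoglobin genes and few UMIs, held 63 of its 85 cells in the treated library. One more urothelium-like cluster, led by Gm26917, had 22 cells and is not described further. Mllt1 stood at 22.3, 16.8 and 20.6 CPM in the ureteric epithelium, but a 3′ count does not read the T1 insertion and so does not check the genotype. As each group was 1 library, differences between groups have no replicate check, no p-value was computed, and the 95% intervals (exact Poisson for levels, exact for ratios and shares) cover counting error only.

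Krt8 and Krt18, a type II and type I pair, are neighbours on chromosome 15. In the GENCODE M21 annotation of GRCm38 (mm10), Krt8 (ENSMUSG00000049382) lies on the minus strand at chr15:101996698-102004482 and Krt18 (ENSMUSG00000023043) on the plus strand at chr15:102028180-102032027, with 23697 bases and no annotated gene between them. Krt7 (ENSMUSG00000023039, chr15:101411043-101430313, plus) is 566384 bases from Krt8, with 42 genes between them, 23 of them keratins. The other type I genes are on chromosome 11, Krt19 (ENSMUSG00000020911) at chr11:100140810-100148665 and Krt23 (ENSMUSG00000006777) at chr11:99477974-99493137, both on the minus strand and 647672 bases apart. Aqp2 (ENSMUSG00000023013) is on chromosome 15 too, at chr15:99579055-99584547 on the plus strand. Aqp1 (ENSMUSG00000004655) is at chr6:55336432-55348555 (plus), Aqp3 (ENSMUSG00000028435) at chr4:41092722-41098183 (minus) and Fxyd4 (ENSMUSG00000004988) at chr6:117933559-117937692 (minus).

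RefSeq start sites (GRCm38.p6) were found for 8 of the 9 genes, and 4 promoters are shown, those of the Krt8 and Krt18 pair, whose UMIs are set against each other below, and those of the collecting duct channels Aqp2 and Aqp3. Each is given 5′ to 3′ on the gene's strand, limited to the bases before the start site that lie outside annotated exons, with motif matches in capitals.
Krt8 promoter (chr15:102004483-102004592, minus strand): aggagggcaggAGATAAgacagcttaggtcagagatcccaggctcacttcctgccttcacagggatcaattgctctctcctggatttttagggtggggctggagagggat
Krt18 promoter (chr15:102027966-102028179, plus strand): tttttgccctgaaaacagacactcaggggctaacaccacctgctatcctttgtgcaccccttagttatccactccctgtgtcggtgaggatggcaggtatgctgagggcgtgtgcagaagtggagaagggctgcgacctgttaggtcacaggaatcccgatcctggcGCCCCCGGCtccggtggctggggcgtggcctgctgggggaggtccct
Aqp2 promoter (chr15:99578806-99579054, plus strand): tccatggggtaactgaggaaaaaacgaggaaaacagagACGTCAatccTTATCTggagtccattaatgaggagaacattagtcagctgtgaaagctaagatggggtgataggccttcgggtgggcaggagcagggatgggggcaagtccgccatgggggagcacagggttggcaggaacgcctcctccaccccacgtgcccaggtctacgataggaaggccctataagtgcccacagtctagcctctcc
Aqp3 promoter (chr4:41098184-41098433, minus strand): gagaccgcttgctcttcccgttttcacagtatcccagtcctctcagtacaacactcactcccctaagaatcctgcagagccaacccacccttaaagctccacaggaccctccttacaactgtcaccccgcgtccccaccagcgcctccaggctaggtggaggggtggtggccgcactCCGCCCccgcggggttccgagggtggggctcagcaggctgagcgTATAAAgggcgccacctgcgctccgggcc
The capitals mark AGATAA, a motif of GATA factors, in Krt8, 239 bases before the start, and GCCNNNGGC (AP-2) in Krt18, 83 bases before it. In Aqp2 they mark ACGTCA, the reverse complement of the cyclic AMP response motif TGACGT, at 212 bases, and TTATCT, the reverse complement of AGATAA, at 202 bases. In Aqp3 they mark TATAAA, the motif known as the TATA box, at 29 bases and CCGCCC, the reverse complement of the GC box GGGCGG, at 73 bases. The 6 motifs were searched on both strands of the 250 bases before 32851 RefSeq starts, of which 12.37% held TATAAA, 9.988% AGATAA, 6.469% TGACGT, 32.74% GGGCGG, 13.73% GCCNNNGGC and 1.79% AACCNGTT (Grainyhead-like). Aqp2 was the only matched gene of the set with TGACGT and Aqp3 the only one with the TATA motif. The motif AACCNGTT had no match in the 8 windows. A match describes letters in the window and not a bound site.

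Most of the 9 genes were largely ureteric in each library. Of all UMIs of Krt7, 86.3, 96.0 and 96.0% came from the ureteric epithelium, and the shares were 85.5, 94.8 and 93.97% for Krt8, 90.5, 93.5 and 94.5% for Krt18 and 94.3, 94.5 and 94.5% for Krt19. Krt23 (93.998, 96.6 and 97.2%) and Fxyd4 (95.3, 93.3 and 95.2%) were alike in this respect. Aqp2 and Aqp3 were divided between the ureteric epithelium and nephron-lineage clusters, with 58.9, 96.9 and 43.9% and 64.3, 94.5 and 76.7% ureteric, and Aqp1 lay almost wholly elsewhere (0.548, 3.29 and 1.54%). Levels below are CPM of summed UMIs. A molecule is counted at its 3′ end whatever its length, so they are compared for 1 gene between cells and, for the keratin pairs, as UMI ratios.

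Among the type II genes, Krt7 was higher at each step from tip to urothelium. Its level was 62.1, 54.9 and 30.1 CPM in tip-like cells, 249.96, 149 and 186 in trunk-like, 387, 278 and 272 in Rhcg-led and 667, 514 and 615 in medullary collecting duct-like cells, and 753, 714 and 785 in the Spp1-led urothelium-like cluster. In Enl-WT the Spp1-led and medullary levels had overlapping intervals. Each other pair of neighbours in that order differed beyond counting error in Enl-WT, as did all of them in Enl-T1. Stroma-like cells, which should lack keratin, held 3.91, 8.75 and 2.58 CPM. Krt8, the main type II keratin of simple epithelia, had the same order but was already high in the tip, at 411, 417 and 258 CPM, against 28.8, 40.0 and 12.6 in stroma-like cells. It reached 1140.3, 961 and 775 in trunk-like, 1709, 1572 and 1331 in Rhcg-led, 2019.8, 1975 and 1936 in medullary and 2047, 2549.8 and 2147 CPM in Spp1-led cells. Medullary cells thus held 4.91 (4.61 to 5.23), 4.74 (4.49 to 5.01) and 7.50 (7.07 to 7.96) times the tip-like level of Krt8, and 10.7 (9.31 to 12.4), 9.37 (8.13 to 10.8) and 20.4 (17.8 to 23.6) times that of Krt7.

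The 3 type I genes differed in where they were highest. Krt18, the usual partner of Krt8, followed it from tip to Rhcg-led cells, with 477, 480.4 and 381 CPM in tip-like, 1367, 1181 and 1262 in trunk-like, 1901, 1730.0 and 1919 in Rhcg-led, 1864, 2044 and 2360.4 in medullary and 1741, 2256 and 2314 in Spp1-led cells (stroma-like cells 33.2, 53.8 and 14.4). In Enl-WT its last 3 levels had overlapping intervals, whereas in Enl-T1 they climbed beyond counting error. Krt19, a short type I keratin of ducts and urothelium, was steepest. It stood at 21.9, 63.2 and 12.3 CPM in tip-like cells, 110.4, 142 and 102 in trunk-like, 233, 382 and 274 in Rhcg-led and 653, 907 and 892 in medullary cells, and at 1288, 2078 and 1486 in the Spp1-led and 1196, 1944 and 1112 in the Upk1b-led cluster. The Spp1-led level was 58.8 (47.3 to 73.8), 32.9 (29.1 to 37.4) and 121 (99.7 to 147) times the tip-like level. Stroma-like cells, where free RNA can give UMIs, held 7.57, 22.5 and 4.31 CPM.

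Krt23, a type I keratin, ran the other way over the proximal part of the tree. Its tip-like level, 137, 149 and 167 CPM, was above its trunk-like level of 17.7, 32.8 and 12.2 in each library, the trunk-like level being 0.129 (0.0782 to 0.201), 0.220 (0.162 to 0.293) and 0.0736 (0.0495 to 0.105) times that of the tip. Beyond the trunk it was found again, at 44.6, 95.6 and 34.7 CPM in Rhcg-led, 134, 139 and 72.9 in medullary and 142, 209 and 93.0 in Spp1-led cells. The dividing Ube2c-led cluster held 168, 88.9 and 157 and the Lix1-led cluster 76.2, 36.0 and 49.0 CPM, and stroma-like cells 2.44, 2.62 and 1.72. In Enl-WT the Ube2c-led, Spp1-led, tip-like and medullary levels followed each other with overlapping intervals. In treated Enl-T1 the tip-like level was the highest, 167 CPM (95% interval 158 to 175) against 72.9 CPM (95% interval 57.6 to 91.2) in medullary cells.

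Aqp2 was low and had its highest ureteric level in the Rhcg-led cluster in each library, at 37.8 (28.9 to 48.5), 170.2 (152 to 191) and 19.4 (13.7 to 26.6) CPM with 95% intervals in parentheses. Medullary cells followed with 12.7 (6.93 to 21.3), 67.1 (57.0 to 78.5) and 10.4 (5.20 to 18.6) and trunk-like cells with 6.18, 37.3 and 5.31 CPM. Tip-like cells held 3, 14 and 2 UMIs in all (0.714, 3.34 and 0.209 CPM) and stroma-like cells 0, 9 and 0. The Spp1-led cluster held 3.54, 12.0 and 4.05 CPM, from 2, 26 and 3 UMIs. No Aqp2 UMI was seen in Upk1b-led cells, which allows up to 14.2, 3.23 and 18.0 CPM. Aqp3 was spread further outward. It went from 4.52, 5.96 and 1.25 CPM in tip-like and 15.0, 29.0 and 26.9 in trunk-like cells to 66.8, 66.7 and 67.4 in Rhcg-led and 58.8, 60.3 and 54.0 in medullary cells, and to 95.6, 99.8 and 97.1 and 131, 127 and 180.4 in the Spp1-led and Upk1b-led clusters. The Rhcg-led and medullary levels of Aqp3 were within counting error of each other in each library.

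Fxyd4 was highest in medullary cells, with 1323, 2296 and 1584 CPM, followed by Spp1-led (1068, 1498 and 1398) and Rhcg-led cells (804, 1524 and 767), whose intervals overlapped in Enl-T1. Trunk-like cells held 225, 451 and 187 and tip-like cells 38.3, 94.7 and 15.45 CPM. Of the urothelium-like clusters, the Upk1b-led one held far less, 104, 119 and 336 CPM, so Fxyd4 separated the 2 clusters where Krt7, Krt8, Krt18 and Krt19 differed far less. The value of the treated library rests on 11 cells. In stroma-like cells the level was 12.0, 35.9 and 10.6 CPM, and in treated Enl-T1 the tip-like and stroma-like intervals overlapped.

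**Figure D1:**
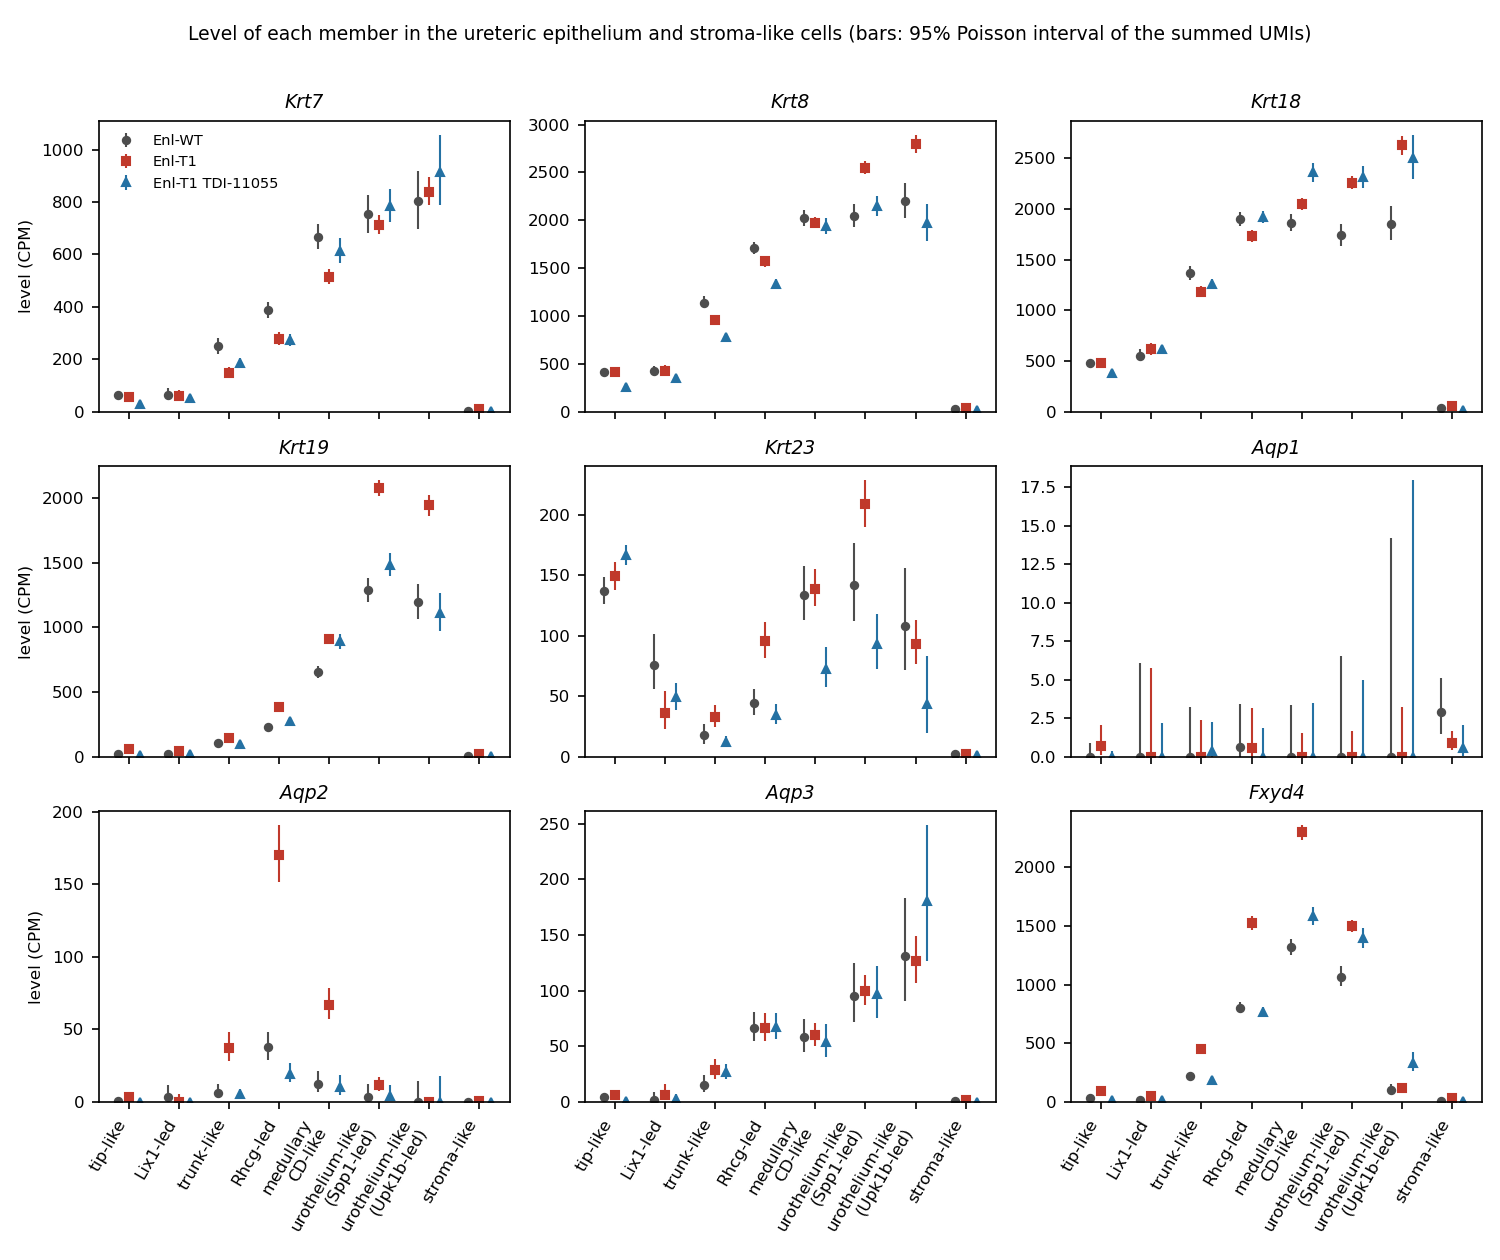
Level of each of the 9 genes (CPM, linear axes, a panel per gene) in 7 ureteric clusters and in stroma-like cells, with Enl-WT as grey circles, Enl-T1 as red squares and treated Enl-T1 as blue triangles and bars for the 95% Poisson interval. Krt7, Krt8, Krt18 and Krt19 are higher in urothelium-like than in tip-like cells, Krt23 dips in trunk-like cells, and Aqp2 peaks in the Rhcg-led cluster, most in Enl-T1 (170.2 CPM).

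Each of the 9 genes had its highest whole-epithelium level in Enl-T1, for Aqp1 within counting error. The shares of all genes highest in Enl-T1 or lowest in the treated library were not computed, so these orders only describe the 9. The type II keratins stood at 251 (241 to 260.0), 328 (319 to 337) and 152 (146 to 157) CPM for Krt7 and 989 (971 to 1008), 1377 (1359 to 1396) and 647 (635 to 658) for Krt8, again with 95% intervals. The type I keratins had 1030.3 (1012 to 1049), 1399 (1380.3 to 1418) and 899 (885 to 912) CPM for Krt18, 229.7 (221 to 239), 700.2 (687 to 714) and 175 (169 to 181) for Krt19 and 104 (97.8 to 109.8), 122 (116 to 127) and 109.9 (105 to 115) for Krt23. Of these, all but Krt23 were lowest in the treated library, beyond counting error. Among the transport genes, Aqp2 had 8.32 (6.72 to 10.2), 38.3 (35.3 to 41.5) and 3.59 (2.78 to 4.55), Aqp3 28.8 (25.7 to 32.1), 48.0 (44.6 to 51.6) and 20.99 (19.0 to 23.2) and Fxyd4 365 (354 to 376), 850.4 (836 to 865) and 266 (258 to 273) CPM, so Aqp2 showed the widest range and all 3 were again lowest in the treated library. Aqp1 had 3, 5 and 1 UMIs in the whole ureteric epithelium, too few for a ratio.

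The comparison of Enl-T1 with Enl-WT asks how genes differ in an epithelium that the study places outside the Cre lineages, in a kidney whose nephron and stroma lineages carry the T1 insertion. Ratios were set against the median of all genes with at least 5 CPM, which lay at -0.30 (log2) in the ureteric epithelium, and a gene is counted as higher or lower past 1.5-fold from that median. The 5 CPM are the mean of the 2 libraries compared, so a gene below this level in 1 library is tested only through the other. Of 8 genes tested, 7 were higher and 0 lower in Enl-T1, where 13.0% of 10529 genes were higher and 9.98% lower. Their median relative log2 ratio was 0.91, against 0 for all genes by construction. Aqp2 stood at 4.61 (95% interval 3.70 to 5.80) times its Enl-WT level, a relative log2 ratio of 2.50. Krt19 stood at 3.05 (95% interval 2.92 to 3.18) times, a relative log2 ratio of 1.91, and Fxyd4 at 2.33 (95% interval 2.25 to 2.41) times, a relative log2 ratio of 1.52. Smaller ratios were found for Aqp3, 1.67 (95% interval 1.46 to 1.91), Krt8, 1.39 (95% interval 1.36 to 1.42), Krt18, 1.36 (95% interval 1.33 to 1.39), and Krt7, 1.31 (95% interval 1.25 to 1.37). Krt23, at 1.17 (95% interval 1.09 to 1.27) and a relative log2 of 0.54, was not past the fold. Without subtracting the median, 4 of the 8 passed, Krt7, Krt8 and Krt18 no longer among them. The share of all genes that passed in that way was not computed.

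The mix of ureteric clusters differed between libraries in the same direction. Tip-like cells, in which the keratins other than Krt23 were low, made up 39.3, 26.8 and 42.4% of ureteric cells, and the 2 urothelium-like clusters together 8.10, 20.1 and 5.10%. Medullary cells made up 9.42, 15.6 and 6.37% and Rhcg-led cells 9.54, 11.4 and 11.2%. With cluster levels weighted by the Enl-WT shares, 3 of the 8 genes remained past 1.5-fold in Enl-T1, and with male-like cells alone also 3, while female-like cells alone gave 8. The share of all genes past the fold was not computed under these settings. Krt19, Aqp2 and Fxyd4 were past the fold in all 11 alternatives tried. In male-like cells Krt7 turned direction, with a relative log2 ratio of -0.17.

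Krt19 and Fxyd4 were past the fold in each of the 7 clusters with enough cells, and Aqp2 in each of the 4 where it was tested. In the Spp1-led cluster Aqp2 was under 5 CPM in Enl-WT and was tested only through Enl-T1, so its call there followed in part from the filter. The 95% intervals reached inside the fold for Krt19 in Lix1-led and trunk-like cells and for Aqp2 in the Spp1-led cluster. Without subtracting the median, Krt19 in medullary and trunk-like cells and Fxyd4 in the Spp1-led cluster were short of the fold. In medullary cells 3 of 8 genes were higher in Enl-T1 (all genes, 17.8%), namely Aqp2 (relative log2 2.64), Fxyd4 (1.08) and Krt19 (0.76). Krt7 (-0.09) and Krt8 (0.25) lay near the median there. In Rhcg-led cells 4 of 8 were higher (16.3%), Aqp2 (2.43), Krt23 (1.36), Fxyd4 (1.19) and Krt19 (0.98). In trunk-like cells 5 of 8 were higher (15.0%), the same 4 and Aqp3 (1.23), and Aqp2 had the largest relative log2 ratio of these, 2.82. Krt7, in contrast, had a relative log2 ratio of -0.44 in trunk-like and -0.21 in Rhcg-led cells, so its higher level in the whole epithelium was not seen within these clusters.

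At the ends of the tree the pattern was similar. In tip-like cells 3 of 7 genes were higher (11.3% of all), Krt19 (1.81), Fxyd4 (1.59) and Aqp3 (0.68). Aqp3, at a low level there in both libraries and tested only through Enl-T1, was past the fold only with the median of all genes (-0.29) subtracted. The stroma-like levels of Krt19 and Fxyd4 were higher in Enl-T1 to a like extent, with relative log2 ratios of 1.86 and 1.88, and the part of free RNA in the tip-like values was not tested. In the Spp1-led cluster 6 of 8 were higher (19.7%). They were Aqp2 (1.82, tested there only through Enl-T1), Krt19 (1.05), Krt23 (0.91), Fxyd4 (0.85), Krt18 (0.73) and Krt8 (0.68). Of these, Krt23, Fxyd4, Krt18 and Krt8 were past the fold only with the median subtracted. The 8 urothelium markers moved with them, summing to 921, 1478 and 813 CPM in this cluster over the 3 libraries, and their part in the ratios was not tested. The Lix1-led cluster, with 140 and 60 cells, had Fxyd4 (2.10) and Krt19 (1.21) higher where 19.2% of genes were, and Krt23 (-0.75) lower where 19.1% were.

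In the dividing Ube2c-led cluster more of the genes differed. Of 7 genes 6 were higher in Enl-T1 (19.0% of all genes), from Krt8 (1.26) to Krt19 (3.70), and Krt23 (-0.67) was lower (17.8%). Markers of other ureteric positions moved with them in these 100 and 56 cells. Over the 3 libraries the 8 urothelium markers summed to 28, 420.1 and 26.5 CPM there and the 9 tip markers to 1195, 652 and 1025 CPM, and the part of this mix in the ratios was not tested.

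Some of these values differed between female-like and male-like cells taken apart, and the part of sex in this was not tested. For Aqp2 the relative log2 ratio was 3.51 in female-like and 1.44 in male-like Rhcg-led cells, 1.72 and 3.35 in trunk-like cells, and 2.51 and 1.03 in medullary cells. It was thus higher in Enl-T1 in each of the 6 sets of cells. The Enl-WT counts behind these values were few. All Rhcg-led cells of Enl-WT held 61 Aqp2 UMIs before the split, and the trunk-like and medullary cells held fewer. No intervals were computed for the split values. For Fxyd4 the medullary values were 1.16 and 0.72.

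TDI-11055-treated Enl-T1 was compared with Enl-T1 to ask how the levels stood after treatment. Both comparisons use the Enl-T1 library, so a high value in that library gives opposite directions in them, and the values are set side by side only. Of 8 genes, 0 were higher and 7 lower in the treated library, where 7.12% of 10286 genes were higher and 10.1% lower, and the median of all genes was 0.01. The median over the 8 genes was -1.17. Aqp2 stood at 0.0936 (95% interval 0.0717 to 0.120) times its Enl-T1 level, Krt19 at 0.250 (95% interval 0.241 to 0.260) and Fxyd4 at 0.312 (95% interval 0.302 to 0.323). Ratios of 0.437 (95% interval 0.386 to 0.494) for Aqp3, 0.462 (95% interval 0.441 to 0.484) for Krt7, 0.470 (95% interval 0.459 to 0.480) for Krt8 and 0.643 (95% interval 0.630 to 0.656) for Krt18 were also past the fold. Krt23, 0.902 (95% interval 0.847 to 0.961), was not. With cluster levels weighted by the Enl-WT shares, 3 of the 8 were lower, Aqp2, Fxyd4 and Krt19, and the share of all genes was not computed.

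Within clusters, fewer of the genes were lower. In medullary cells Aqp2 (relative log2 -2.66) and Krt23 (-0.96) were past the fold, 2 of 8 against 10.2% of all genes, and Fxyd4 (-0.57) was just short of it. In Rhcg-led (8.85% of all genes lower) and trunk-like cells (8.48%) the same 3 of 8 genes were lower, Aqp2 (-3.16 and -2.81), Krt23 (-1.49 and -1.45) and Fxyd4 (-1.03 and -1.31). Krt23, whose whole-epithelium ratio was not past the fold, was thus lower in 3 clusters, while its tip-like level, 149 CPM in Enl-T1 and 167 in the treated library, had a relative log2 ratio of 0.18. Tip-like cells had 4 of 6 genes lower (7.48% of all), Fxyd4 (-2.60), Krt19 (-2.34), Krt7 (-0.85) and Krt8 (-0.67). The tip-like Fxyd4 level of the treated library had an interval overlapping the stroma-like one, and the part of free RNA was not tested. In the Lix1-led cluster 2 of 6 genes were lower (12.2% of all), Fxyd4 (-1.96) and Krt19 (-1.27).

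Set against Enl-WT, fewer of the genes were past the fold in the treated library. Of 8 genes 0 were higher (14.6% of all genes) and 1 lower (17.5%), the latter Aqp2 at 0.431 (95% interval 0.310 to 0.596) times the Enl-WT level (relative log2 -0.94). The others ranged from -0.45 for Krt7 to 0.36 for Krt23. The median of all genes was -0.28, and without subtracting it 3 were lower, Krt7 at 0.605 and Krt8 at 0.654 times the Enl-WT level joining Aqp2. For that count the share of all genes was not computed. In tip-like cells 2 of 6 were lower (18.4%), the lower ones being Fxyd4 (-1.02) and Krt7 (-0.75), and without subtracting the median Krt8 and Krt19 joined them. The part of free RNA in these tip-like values was not tested.

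**Figure D2:**
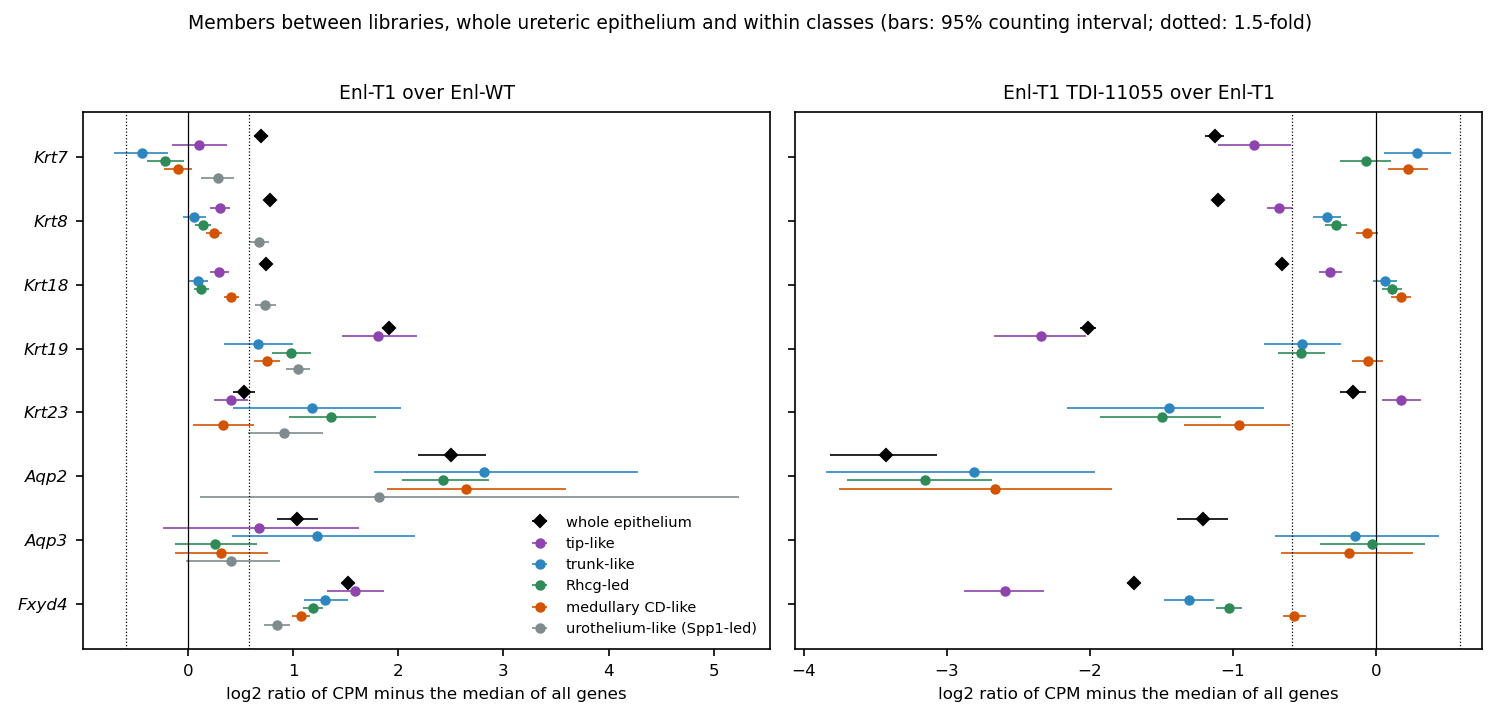
Log2 ratio of CPM minus the median of all genes for 8 genes (Aqp1 had too few UMIs), Enl-T1 over Enl-WT on the left and treated Enl-T1 over Enl-T1 on the right; black diamonds are the whole ureteric epithelium, coloured circles single clusters, bars 95% counting intervals and dotted lines 1.5-fold. Aqp2, Krt19 and Fxyd4 lie to the right in the left panel within clusters as well, whereas Krt7 lies near or below 0 in the trunk-like (-0.44), Rhcg-led and medullary clusters.

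The balance of the 2 filament partners also differed between libraries. Type I over type II UMIs in the ureteric epithelium were 1.10 (1.07 to 1.13), 1.30 (1.28 to 1.32) and 1.48 (1.45 to 1.51), with 95% intervals that did not overlap. The same order held in tip-like (1.34, 1.47 and 1.94), trunk-like (1.08, 1.22 and 1.43), Rhcg-led (1.04, 1.19 and 1.39) and medullary cells (0.987, 1.24 and 1.30), but not in the Spp1-led (1.13, 1.39 and 1.33) and Upk1b-led clusters (1.05, 1.28 and 1.27). Intervals of Enl-WT and Enl-T1 overlapped in tip-like and trunk-like cells, and those of Enl-T1 and the treated library in medullary cells. Krt18 made up 75.6, 63.0 and 75.9% of type I UMIs, so that in Enl-T1 Krt19 took a larger part. For the neighbouring pair, Krt8 over Krt18 was 0.9602 (0.935 to 0.986), 0.985 (0.966 to 1.004) and 0.720 (0.703 to 0.737), near balance in both untreated libraries and lower in the treated one. That ratio was lowest in the treated library within each of 6 clusters, at 0.863, 0.867 and 0.678 in tip-like, 0.834, 0.814 and 0.615 in trunk-like, 0.899, 0.908 and 0.694 in Rhcg-led, 1.08, 0.966 and 0.820 in medullary, 1.18, 1.13 and 0.928 in Spp1-led and 1.19, 1.06 and 0.786 in Upk1b-led cells. It also stayed lowest there in 4 subsets of cells, which were chosen for this ratio after seeing the data. With at least 2000 genes and at most 5% mitochondrial counts per cell it was 0.882, 0.943 and 0.701, with the highest Scrublet doublet scores removed 0.957, 0.985 and 0.719, in female-like cells 0.928, 1.01 and 0.722 and in male-like cells 0.995, 0.871 and 0.727. In the Cdc20-led cluster the order was not the same (0.523, 0.882 and 0.719), with 17, 5 and 63 cells.

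**Figure D3:**
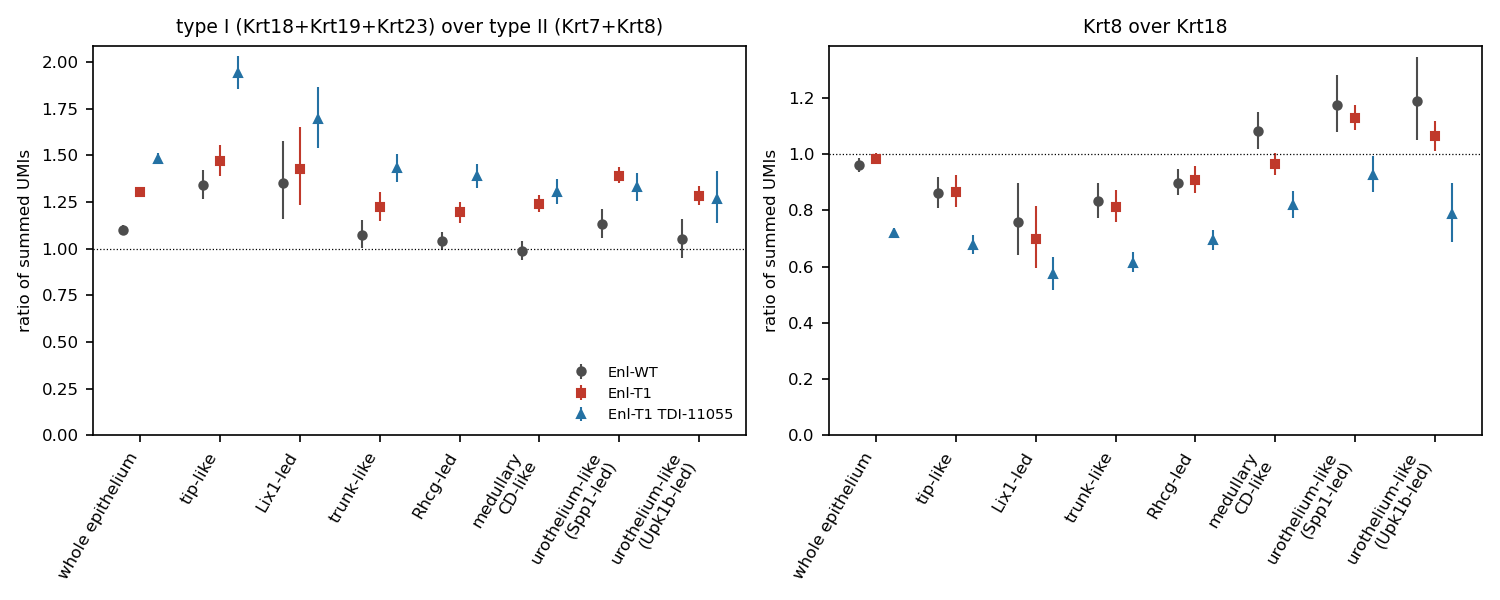
Ratio of summed UMIs of type I (Krt18, Krt19, Krt23) to type II keratins (Krt7, Krt8) on the left and of Krt8 to Krt18 on the right, for the whole ureteric epithelium and 7 clusters in Enl-WT (grey circles), Enl-T1 (red squares) and treated Enl-T1 (blue triangles), with 95% intervals and a dotted line at 1. On the right the treated library is the lowest in each column, 0.720 in the whole epithelium.

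In single cells, depth was equalised by thinning each cell to 2000 UMIs, which left 1713, 1167 and 1009 ureteric cells. Krt18 was then detected in 72.5, 79.9 and 70.4% of them and Krt8 in 66.3, 77.0 and 58.9%, against 5.18, 11.1 and 2.59% and 3.53, 7.54 and 2.96% of stroma-like cells, whose median depth was 4037, 6925 and 13314 UMIs beside 5227, 11702 and 19318 in ureteric cells. Krt7 was found in 30.6, 37.7 and 21.6%, Krt19 in 23.0, 45.8 and 18.3% and Krt23 in 16.3, 17.9 and 15.2% of ureteric cells. Stroma-like shares of these were 0.471, 1.65 and 0%, 1.30, 3.52 and 1.48% and 0.589, 0.359 and 0%, and a share of 0 in the treated library allows up to 1.36%. Of the transport genes, Fxyd4 was detected in 29.6, 51.1 and 25.9% (stroma-like 2.83, 7.61 and 3.70%), Aqp3 in 4.90, 8.83 and 4.46% and Aqp2 in 1.17% (0.715 to 1.80), 6.34% (5.01 to 7.90) and 0.991% (0.476 to 1.82) of ureteric cells. Unthinned, the Fxyd4 and Aqp2 shares were 40.4, 74.8 and 47.2% and 3.79, 16.2 and 3.43%. Aqp2 was absent from the stroma-like cells of Enl-WT and of the treated library, which allows up to 0.434% and 1.36%. In tip-like cells of the treated library Fxyd4 was found in 2.55%, below the stroma-like share of 3.70%. Its tip-like CPM there was above the stroma-like CPM with overlapping intervals, and the part of free RNA was not tested. The tip-like Krt19 shares, 2.07, 7.01 and 1.86%, had 95% intervals that overlapped the stroma-like ones in each library, while its tip-like CPM was above the stroma-like CPM in each.

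Aqp2 was thus a gene of few cells. In the Rhcg-led cluster it was seen in 8.43% (4.69 to 13.7), 22.4% (15.6 to 30.4) and 4.39% (1.44 to 9.94) after thinning and in 22.3, 55.2 and 15.8% before it, and Fxyd4 in 77.7, 92.5 and 65.8% after thinning. Without thinning, 66, 190 and 35 ureteric cells held an Aqp2 UMI, with at most 4, 20 and 8 UMIs in a cell. Among all thinned ureteric cells with Aqp2 (20, 74 and 10), 70, 86.5 and 80% also held Fxyd4, against 29.1, 48.7 and 25.3% of cells without Aqp2. Within the Rhcg-led cluster the shares were 78.6, 96.7 and 80% against 77.6, 91.3 and 65.1%, with overlapping 95% intervals in each library. Over all ureteric cells the keratins were also found together. Krt18 was in 83.1, 86.5 and 79.3% of cells with Krt8 and 51.6, 57.8 and 57.6% of cells without, and Krt19 in 50, 74.3 and 42.2% of cells with Krt7 and 11.1, 28.5 and 11.8% of those without. These shares pool clusters of very different levels. Within medullary, Rhcg-led and trunk-like cells the intervals for Krt19 with and without Krt7 overlapped in each library, at 39.8 against 36.1%, 59.6 against 48.3% and 34.2 against 39.5% in Rhcg-led cells. In tip-like cells Krt18 was in 62.9, 58.4 and 47.6% of cells with Krt8 and 45.9, 48.5 and 51.1% of those without, apart beyond counting error in Enl-WT but not in the others. In tip-like cells Krt23 was in 7 of 69, 1 of 24 and 1 of 21 cells with Krt7 (10.1, 4.17 and 4.76%) and in 23.2, 22.1 and 25.1% of cells without, with overlapping intervals in Enl-T1 and the treated library. Cells of 1 library are not replicates, so these shares describe each library.

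Outside the ureteric epithelium, Aqp2 and Aqp3 were found in 2 clusters of the nephron lineage. The smaller, with 36, 6 and 17 cells, was led by S100g and stayed unnamed, since it expressed genes of the distal tubule beside Foxi1 and Atp6v1g3, a transcription factor and a proton pump subunit of intercalated cells. It held Aqp3 at 342 (282 to 410.4), 113 (48.9 to 223) and 256 (203 to 319) and Aqp2 at 110.0 (77.4 to 152), 14.2 (0.358 to 78.9) and 87.5 (57.6 to 127) CPM. In Enl-WT and in the treated library both channels had their highest level of any cluster there. The Aqp2 UMIs came from 14, 1 and 4 cells, of which 13, 1 and 4 also held Gata3, a factor of ureteric and connecting segment cells looked at after these values were seen. In the treated library 24 of the 27 Aqp2 UMIs were in 1 cell, so that level rests on few cells.

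The Slc12a1-led distal tubule-like cluster, with 224, 47 and 64 cells, held Aqp2 at 16.4 (10.001 to 25.3), 0 (0 to 7.91) and 51.7 (39.1 to 67.1) and Aqp3 at 27.0 (18.6 to 37.9), 6.43 (1.33 to 18.8) and 28.6 (19.4 to 40.6) CPM. Its Aqp2 UMIs came from 9, 0 and 7 cells, 7, 0 and 7 of them with Gata3 and 1, 0 and 0 with Slc12a1 itself, and 29 of the 56 treated UMIs were in 1 cell. The Aqp3 UMIs came from 15, 3 and 11 cells, 11, 3 and 9 of them with Gata3. With 47 cells in Enl-T1, a ratio was taken only between the treated library and Enl-WT, where 1 of 7 genes was higher (18.8% of all genes), Aqp2 (relative log2 1.86).

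Krt7 and Krt8 were also found in several nephron-lineage clusters. The S100g-led cluster held 52, 21 and 58 Krt7 UMIs in 18, 3 and 10 cells, with 15 of the 21 in 1 cell. Its type II level was 743, 1444 and 823 CPM, of which Krt8 made up 79.2, 79.4 and 77.2%. In the Slc12a1-led cluster the type II level was 237, 152 and 150 CPM, with 94.8, 88.7 and 94.4% Krt8. Podocyte-like cells (224, 41 and 31) held Krt7 at 175 CPM (95% interval 155 to 196) in Enl-WT, from 292 UMIs in 102 cells. No Krt7 UMI was counted in the podocyte-like cells of Enl-T1, which allows up to 11.8 CPM, and the treated library had 7 UMIs in 5 cells (14.4 CPM). These cells were few in both of those libraries, under the 50 needed for a ratio. Their Krt7 came with little Krt8, which made up 9.32% of type II UMIs in Enl-WT, and with few type I UMIs (0.177 for each type II UMI). Proximal tubule-like cells (135, 7 and 20) held Krt8 at 734 (682 to 789), 116 (55.7 to 214) and 316 (233 to 417) CPM and 4.86 (4.08 to 5.83), 3.33 (0.858 to 18.8) and 3.5 (1.90 to 6.86) Krt8 UMIs for each Krt18 UMI. An Osr2-led cluster (193, 31 and 87 cells), unnamed as it expressed genes of both committed nephron and proximal tubule, held Krt8 at 181 (157 to 207), 44.2 (26.2 to 69.9) and 55.3 (41.97 to 71.5) CPM. Its treated Krt8 level was 0.306 (95% interval 0.225 to 0.411) times that of Enl-WT, and 2 of 5 genes, Krt8 (relative log2 -1.26) and Krt7 (-2.79), were lower there where 27.5% of all genes were.

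Aqp1 was found in proximal tubule-like and endothelium-like cells. The proximal level was 189.7 (164 to 219), 0 (0 to 42.9) and 0 (0 to 23.8) CPM from 191, 0 and 0 UMIs, so that it was seen in Enl-WT alone, in 82 of 135 cells. After thinning to 2000 UMIs the Enl-WT share was 27.6% (20.2 to 36.0), and the 7 and 20 cells of the other libraries allow shares of up to 41.0% and 16.8%. In endothelium-like cells, of which 76, 42 and 17 held it, Aqp1 stood at 112 (100.4 to 125), 42.8 (35.9 to 50.6) and 34.7 (26.6 to 44.4) CPM. The Enl-T1 level was 0.381 (95% interval 0.309 to 0.467) times that of Enl-WT (relative log2 -1.08). It was the 1 gene of the set lower there, where 11.9% of all genes were, while 5 were higher against 13.2%.

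The low keratin and Fxyd4 levels of classes that should lack them moved with the ureteric levels. In stroma-like cells 5 of 5 tested genes were higher in Enl-T1 (14.2% of all genes) and 5 of 5 lower in the treated library than in Enl-T1 (12.8%). In nephron progenitor-like cells 4 of 4 were higher (13.8%) and 4 of 4 lower (7.55%), Fxyd4 at 7.23, 28.0 and 9.98 CPM for example. Stroma-like Krt7 was under 5 CPM in Enl-WT and in the treated library, stroma-like Krt19 in the treated library and progenitor-like Krt19 in Enl-WT. In those comparisons they were tested only through Enl-T1, so these counts followed in part from the filter. Subtracting each library's stroma-like level from the ureteric level, an alternative chosen after seeing the data, left 7 genes higher in Enl-T1 and 7 lower in the treated library. It was run on the whole epithelium only. There the stroma-like levels are a small part of the keratin and Fxyd4 levels, so the counts could hardly change. Free RNA in single clusters such as the tip-like cells was not tested. Over all cells outside the ureteric epithelium, 2 of 7 genes were higher in Enl-T1 (13.6%) and 4 lower (13.4%), the latter Aqp3 (-2.14), Aqp1 (-1.98), Krt7 (-1.17) and Krt8 (-0.79). The proximal tubule-like, podocyte-like, Slc12a1-led and S100g-led clusters, where UMIs of these 4 genes were found, had 135, 224, 224 and 36 cells in Enl-WT. In Enl-T1 they had 7, 41, 47 and 6. More of the Aqp1 UMIs were in endothelium-like cells, 325 and 136 from 395 and 256 cells, against 191 and 0 in proximal tubule-like cells. The part of cell numbers in these ratios was not tested.

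**Figure D4:**
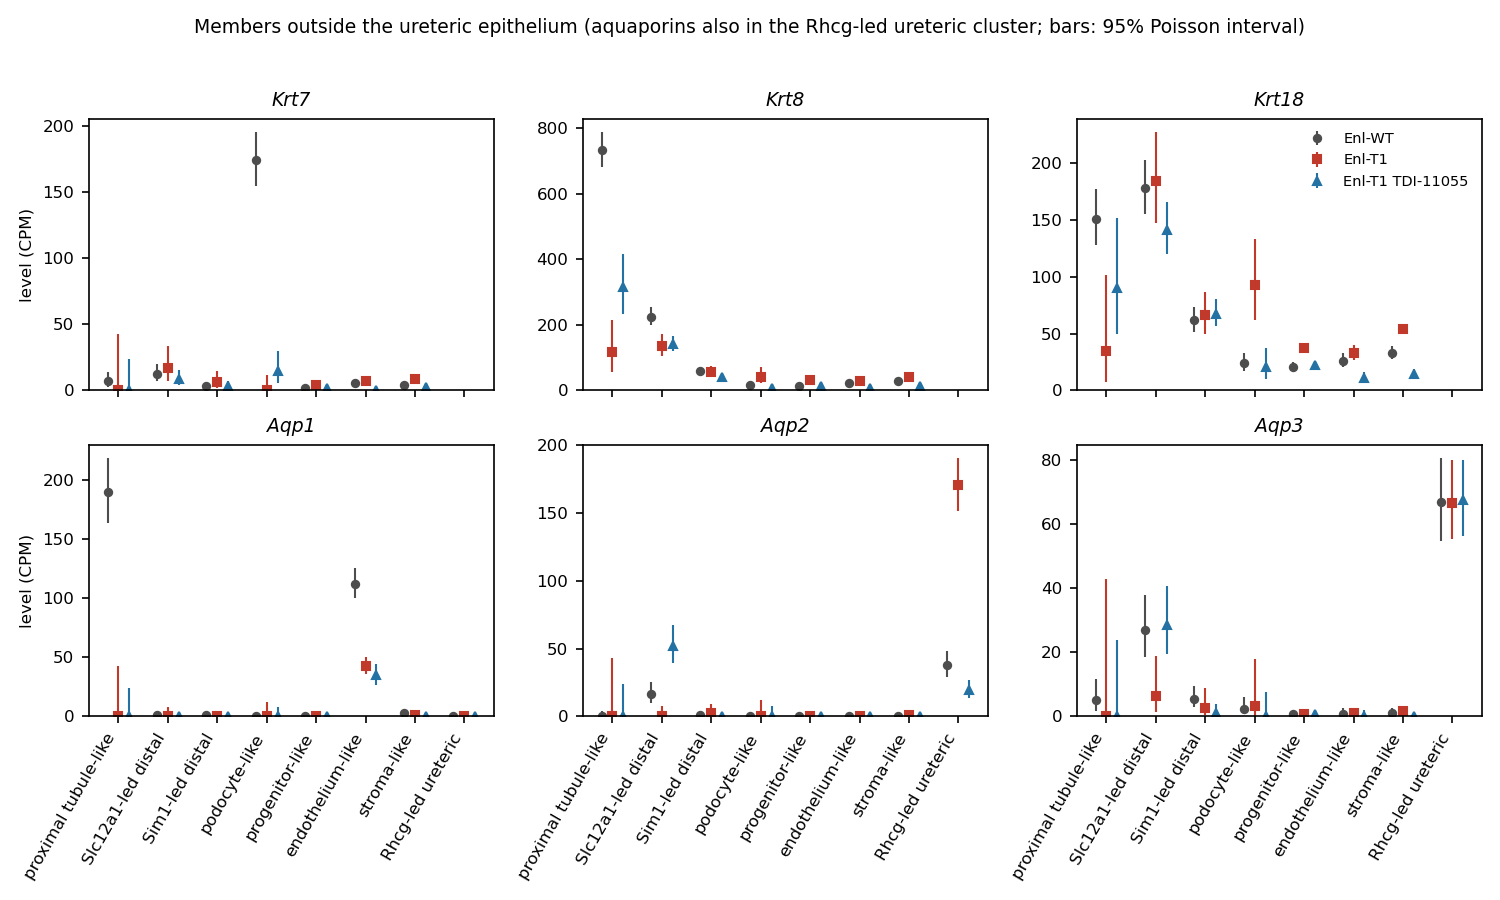
Level (CPM, linear axes) of Krt7, Krt8, Krt18, Aqp1, Aqp2 and Aqp3 in 7 cell classes outside the ureteric epithelium, with the Rhcg-led ureteric cluster added for the aquaporins; symbols and 95% Poisson bars are as for the ureteric levels. Krt7 in podocyte-like and Krt8 and Aqp1 in proximal tubule-like cells are high in Enl-WT (175, 734 and 189.7 CPM), and Aqp2 in the Slc12a1-led distal cluster has 0 UMIs in Enl-T1.

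The genes whose levels were most like each of the 9 were sought among 6721 genes by Pearson's r of log2 levels over 46 points, each a cell class in a library; the points share libraries and depth, and no test was made. For the type II keratins they were Klf5 (r = 0.95) and Ikzf2 (0.93) for Krt7 and Pdzk1ip1 (r = 0.98) and Elf3 (0.96) for Krt8. The type I keratins had Klf5 (r = 0.96) and Elf3 (0.95) for Krt18, Foxq1 (r = 0.93), Sfn (0.93) and Fxyd3 (0.93) for Krt19 and Ehf (r = 0.86), Mal2 (0.86) and Cldn8 (0.85) for Krt23. Klf5 and Elf3 each came up for 2 keratins. For the channels they were Tmem213 (r = 0.82), Blnk (0.75) and Tsc22d4 (0.74) for Aqp2, Lgals3 (r = 0.93), Foxq1 (0.92) and Errfi1 (0.92) for Aqp3 and Cd34 (r = 0.77), Pecam1 (0.76) and Abcg2 (0.74) for Aqp1, Cd34 and Pecam1 being endothelial genes. Fxyd4 was most like S100a14 (r = 0.93), Sprr2f (0.93) and Spink8 (0.92). Among the 9 themselves, Krt8 with Krt18 had the highest r, 0.97, followed by Krt7 with Krt18, 0.91, and Aqp1 had r from -0.35 to -0.20 with the others.

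Over the whole ureteric epithelium, most of the other keratins and aquaporins were below 5 CPM. In at least 1 ureteric cluster and library, 11 of the 48 other keratins, 3 of the 9 aquaporins and 4 of the 6 FXYD genes reached 5 CPM. In the whole epithelium 2 other keratins reached a mean of 5 CPM and both were higher in Enl-T1. They were Krt10 at 17.5 and 32.2 CPM (relative log2 1.18) and Krt80 at 29.1 and 35.8 (0.60). Of 9 other aquaporins 3 were tested and Aqp5, a channel of secretory and lung epithelium, was higher, 1.34 against 8.998 CPM (3.01). Aqp5 was tested only through its Enl-T1 level, so its call followed from the filter. Of 6 other FXYD genes 3 were tested. Fxyd3, another regulator of the sodium pump, was higher in Enl-T1 and lower in the treated library, 64.4, 382 and 61.4 CPM. Fxyd6 went the other way, 20.2, 8.03 and 18.5 CPM.

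Lists of genes that act with the 9 were set beside the same shares of all genes, 13.0% higher and 9.98% lower in Enl-T1 in the whole ureteric epithelium. Of 12 genes that attach keratin filaments to desmosomes or cross-link them, 11 were tested, 1 was higher (Jup, plakoglobin, relative log2 0.78) and 2 lower (Eppk1, -0.86, and Plec, -0.61), with a median of -0.11. Within most clusters more of them were lower. In tip-like cells 7 of 10 were lower (median -0.71, with 10.8% of all genes lower), in trunk-like 7 of 11 (-0.86, 14.3%), in medullary 6 of 11 (-0.62, 15.1%) and in Rhcg-led cells 5 of 11 (-0.39, 15.4%). The Lix1-led cluster had 5 of 10 lower (-0.62, 19.1%) and the Spp1-led cluster 4 of 11 (-0.16, 17.1%), whereas in the Ube2c-led cluster 0 were lower and 4 of 11 higher (0.17, with 19.0% of all genes higher). Of 13 genes of collecting duct water and salt transport, 12 were tested, 1 was higher and 2 lower, with a median of 0.08. The higher one was Scnn1a, a subunit of the epithelial sodium channel, at 17.9 and 24.4 CPM. The lower ones were Kcnj10, a basolateral potassium channel (-1.14), and Adcy6, an adenylyl cyclase (-0.73). Of 17 epithelial transcription factors, 16 were tested, 3 were higher (Grhl3, 1.36, Foxa1, 0.89, and Elf3, 0.77) and 2 lower (Tfap2b, -0.69, and Tfap2a, -0.66), with a median of 0.05. Grhl3 was under 5 CPM in Enl-WT and Kcnj10 in Enl-T1, so each was tested only through the other library.

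Over the whole epithelium, more of these genes were lower in treated over untreated Enl-T1. The attachment list had 8 of 10 lower and none higher, with a median of -0.89, including Evpl (-1.77), Ppl (-1.30) and Plec (-1.19). Within clusters fewer of them were lower, 3 of 8 in tip-like (median -0.49), 2 of 10 in medullary (-0.26), 2 of 11 in Rhcg-led (-0.44), 1 of 9 in Lix1-led (-0.28) and 1 of 11 in trunk-like cells (-0.12), where 2 were higher (8.54% of all genes). Evpl and Ppl encode the plakins envoplakin and periplakin. The transport list had 5 of 10 lower and none higher, with a median of -0.40, including Scnn1a (-2.02), Atp1b1, the beta subunit of the sodium pump (-0.97), and Nedd4l, a ubiquitin ligase of the sodium channel (-0.95). Of 15 transcription factors tested, 3 were lower, Foxa1 (-1.76), Klf5 (-1.22) and Tfcp2l1, a collecting duct factor (-0.79), and 2 higher, Tfap2b (0.82) and Tfap2a (0.71), with a median of -0.17. Krt80 (-1.48) and Aqp4, a basolateral water channel (-0.87), were lower as well. Within clusters the transport list had 3 of 8 lower in tip-like, 2 of 11 in trunk-like, 1 of 11 in medullary and 0 of 12 in Rhcg-led cells. In medullary cells 2 of 11 were higher (11.9% of all genes), and in Lix1-led cells 1 of 8 was lower and 1 higher (12.1%). Of the transcription factors, 4 of 15 were lower in tip-like, 1 of 14 in Lix1-led and 1 of 15 in Rhcg-led cells. In Rhcg-led (8.45%) and trunk-like cells 1 of 15 was higher. In medullary cells 0 of 16 were lower and 5 higher (median 0.29). The counts over the whole epithelium stand beside 10.1% of all genes lower and 7.12% higher in the same cells, and those within clusters beside the shares given for the 9 genes.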

How the data were processed

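The authors deposited raw unique molecular identifier (UMI) counts per gene and barcode for 3 10x 3′ libraries, 1 per group. The submitters' processing notes name Cell Ranger 6.1.2 and mm10. Of the deposited count columns, 0 were left unused. Each group was 1 library with no replicate. By the study's account each untreated library pooled more than 1 embryo, with fewer in Enl-WT than in Enl-T1. Library totals were 37221435, 63336586 and 76619303 UMIs over 7186, 6575 and 6453 barcodes.

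From these counts, barcodes with 1000 to 6000 genes and at most 10% mitochondrial counts were kept, as in the study, and the kept numbers differed slightly from those it states. Cells were integrated and clustered in Seurat 5.3.0 (R 4.3.3) without 335 genes, among them the 9 members. Clusters of the ureteric and nephron lineages were named "-like" from marker lists where a name's markers led over those of other lists. That naming rule was refined after the clusters were seen. Everything else used Python 3.11.15 with numpy 2.4.6, scipy 1.17.1, pandas 2.3.3 and scanpy 1.11.5. Counts were summed per cluster and library and scaled to 1000000 UMIs (CPM) with exact Poisson 95% intervals. Ratios have exact intervals from the split of the counts. Their log2 values (0.5 UMI added) were centred on the median of all genes with at least 5 CPM, where both libraries had at least 50 cells. A count of 0 is given with its upper limit. Shares of cells have exact Clopper-Pearson intervals after thinning to 2000 UMIs. No test between groups was possible. The scripts were tested on simulated data.

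The 9 genes and all lists were chosen with earlier results of these data known. From each further list, up to 3 genes higher and 3 lower by the size of the relative log2 ratio are named, and for each of the 9 the 3 genes with the highest correlation among genes of at least 20 CPM, of which some are not reported here. Alternatives changed the scaling, the filters on genes and cells, doublets (the highest Scrublet scores, 0.8% per 1000 barcodes, were removed; in the main values they were kept), the genes used for clustering, the mix of clusters, the sex of the cells and the thinning. Female-like cells had Xist and no Y-linked UMI, male-like cells the reverse.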

Additional observations from a re-analysis of the deposited data

Results flagged for a closer look

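The Krt23 difference between Enl-T1 and Enl-WT went in opposite directions in different ureteric clusters. Each time the ratio was past 1.5-fold from the median of all genes, before counting error is considered. It was higher in Enl-T1 in Rhcg-led cells (relative log2 ratio 1.36), trunk-like cells (1.18) and Spp1-led urothelium-like cells (0.91). It was lower in Lix1-led (-0.75) and dividing Ube2c-led cells (-0.67). The counting intervals of the relative log2 ratio reached inside the fold in all of these clusters but the Rhcg-led one (0.96 to 1.79). They were 0.43 to 2.03 in trunk-like, 0.57 to 1.28 in Spp1-led, -1.55 to -0.01 in Lix1-led and -1.08 to -0.27 in Ube2c-led cells. Without subtracting the median, the Spp1-led ratio alone was short of the fold, at 1.47. With 1 library in each group, the difference between clusters was not tested.

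Krt7 in the whole ureteric epithelium was higher in Enl-T1 among female-like cells (relative log2 ratio 0.92) and on the other side of the median among male-like cells (-0.17). In Enl-WT the 2 sets had 493 and 835 cells, and in Enl-T1 846 and 233. This difference was not tested either.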

How the results depend on the processing

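In Enl-T1 over Enl-WT, 7 of 8 genes were higher, and 4 without subtracting the median of all genes, 3 in male-like cells alone and 3 with cluster levels weighted by the Enl-WT shares. In treated over untreated Enl-T1, 7 of 8 were lower, and 3 with the weighted cluster levels. The other settings stayed within 1.5 times these counts, and no setting turned a count's direction. The share of all genes past the fold was computed for the main setting only. Of the genes past the fold, only Krt7 turned direction, at -0.17 in male-like cells of Enl-T1 over Enl-WT. Krt23 in treated over untreated Enl-T1, not past the fold, ranged from -0.19 to 0.16. With at least 2000 genes and at most 5% mitochondrial counts per cell, which left 450, 506 and 761 ureteric cells, type I over type II keratin UMIs were 1.29, 1.36 and 1.55, in the same order as before. Removing the highest Scrublet scores and clustering with the 9 genes kept left 7 higher and 7 lower. In treated Enl-T1 over Enl-WT, 1 of 8 was lower, and 3 without subtracting the median. No other setting was run for that comparison. The causes of these shifts were not tested. No paired analysis was possible because each group is 1 library. Leaving out a replicate was not possible for the same reason. Depth limits the genes of few UMIs, chiefly Aqp1 in the ureteric epithelium and Aqp2 outside the Rhcg-led, medullary and trunk-like clusters, and the small clusters, where 1 cell can hold most UMIs.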
